A study of Homo sapiens with 6 samples.

Results

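The genes described here encode the working parts of the lysosome: cathepsins and legumain, glycosidases, sulfatases, lipid hydrolases, membrane proteins, the proton pump and the receptors that deliver enzymes to it. The 52 genes were listed by their role in the organelle, with earlier results of these data known; the changes with versican are not part of the rule. Of these, 51 had a probe set annotated with a single gene symbol, and the brightest of a gene's probe sets stood for it. GLB1, beta-galactosidase, shares its probe set with another symbol and was not analysed here. The members were read from a table of 19775 genes, of which 9887 were tested, 49 of them members.

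The cells were OVCA433, an established line derived from high-grade serous ovarian cancer and grown with 10% fetal bovine serum, and their RNA was read on Affymetrix U133 Plus 2.0 microarrays. On 3 arrays the cells had received fresh medium without versican, 24 hours after seeding, and on the other 3 arrays fresh medium with exogenous versican, a matrix proteoglycan that carries chondroitin sulfate chains. RNA was taken at 48 hours; the harvest note counts these from a transfection that the labels mention nowhere else, so the starting point is uncertain. All 6 arrays are of 1 cell line, the versican dose was not given in the sources used here, and nothing says that the 3 samples of a group came from separate days, so a p-value here covers only how these 3 and 3 samples vary, and that variation may be technical.

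Lysosomal hydrolases are made in the endoplasmic reticulum, tagged with mannose 6-phosphate in the Golgi, and carried by M6PR and IGF2R to endosomes. The V-ATPase, a rotary pump with a cytosolic V1 part and a membrane V0 part, acidifies the lumen, where the hydrolases work. Many of their genes carry a palindromic E-box, the CLEAR element, in the promoter, which TFEB, TFE3 and MITF can bind. Cathepsins secreted by tumour cells can also cut matrix proteins.

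Promoter sequences are shown for 5 members that carry this E-box: MCOLN1 and ATP6V0D1, which rose with versican, GAA and CLN3, which fell, and LAMP1, which was not called. Each line runs 5′ to 3′ from 250 bases before the annotated start to 10 bases after it, from RefSeq on GRCh38.p14. Capitals mark CACGTG, or TCACGTGA where the longer motif was present. They lie at chr19:7522374-7522633, plus strand (MCOLN1), chr16:67481148-67481407, minus strand (ATP6V0D1), chr17:80101331-80101590, plus strand (GAA), chr16:28492065-28492324, minus strand (CLN3) and chr13:113296989-113297248, plus strand (LAMP1).
MCOLN1: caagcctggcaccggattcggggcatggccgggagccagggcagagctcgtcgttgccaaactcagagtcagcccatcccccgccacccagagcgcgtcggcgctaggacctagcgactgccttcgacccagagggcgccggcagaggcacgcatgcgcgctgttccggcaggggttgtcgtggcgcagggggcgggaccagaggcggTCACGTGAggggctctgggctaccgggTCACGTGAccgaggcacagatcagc
ATP6V0D1: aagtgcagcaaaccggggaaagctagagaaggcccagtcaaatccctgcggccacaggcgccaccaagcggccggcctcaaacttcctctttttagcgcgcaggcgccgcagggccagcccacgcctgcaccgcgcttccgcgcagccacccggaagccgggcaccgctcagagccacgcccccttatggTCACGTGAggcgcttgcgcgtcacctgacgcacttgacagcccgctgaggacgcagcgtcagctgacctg
GAA: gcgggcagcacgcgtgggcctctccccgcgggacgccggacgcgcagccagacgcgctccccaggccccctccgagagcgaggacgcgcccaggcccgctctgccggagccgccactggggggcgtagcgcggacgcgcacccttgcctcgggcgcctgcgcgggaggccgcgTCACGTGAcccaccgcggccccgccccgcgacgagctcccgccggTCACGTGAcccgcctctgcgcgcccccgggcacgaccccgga
CLN3: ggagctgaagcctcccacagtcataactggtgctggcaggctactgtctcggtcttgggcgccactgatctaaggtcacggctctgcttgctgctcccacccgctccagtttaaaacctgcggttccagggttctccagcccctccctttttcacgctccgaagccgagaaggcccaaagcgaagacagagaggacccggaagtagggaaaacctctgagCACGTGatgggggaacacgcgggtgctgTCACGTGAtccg
LAMP1: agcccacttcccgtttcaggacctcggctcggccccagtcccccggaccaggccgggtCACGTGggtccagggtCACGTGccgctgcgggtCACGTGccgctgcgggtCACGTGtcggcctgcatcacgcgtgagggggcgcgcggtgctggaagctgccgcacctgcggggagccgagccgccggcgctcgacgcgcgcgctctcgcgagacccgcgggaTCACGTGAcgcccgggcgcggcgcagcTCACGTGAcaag

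The longer motif, TCACGTGA, stood 2 times in MCOLN1, 2 times in GAA, 1 time in ATP6V0D1, 1 time in CLN3 and 2 times in LAMP1, whose window held 6 copies of CACGTG in all. Both motifs read the same on either strand, and each TCACGTGA contains a CACGTG. RefSeq windows of 300 bases (250 before to 50 after a start) were found for 33 of the 52 members. CACGTG was present in 13 of these 33 genes (39.4%), against 8.77% of 27305 genes with a window and 10.9% of 15843 protein-coding ones. TCACGTGA was present in 8 of the 33 (24.2%), against 1.18% and 1.65%. Many lysosomal genes are known to carry this element, so a high share follows from how the members were chosen. It says nothing about versican, and the shares were not tested. The motif stood on both sides of the response: CACGTG was found in 3 of 4 members that rose, 3 of 11 that fell and 6 of 16 that were not called. IGF2R, which was not called, held 3 copies of TCACGTGA. Windows were not matched for CTSS, NAGLU, ASAH1, HEXA, SGSH, CTSB, ATP6V1C1, LAMP2, ATP6V1B2, MANBA, ATP6V0E1, LAMP3, CTSO, ATP6V1A, ARSA, LGMN, ATP6V1H, PSAP and CTSK. A match is a run of letters and does not show that a factor was bound.

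**Figure D1:**
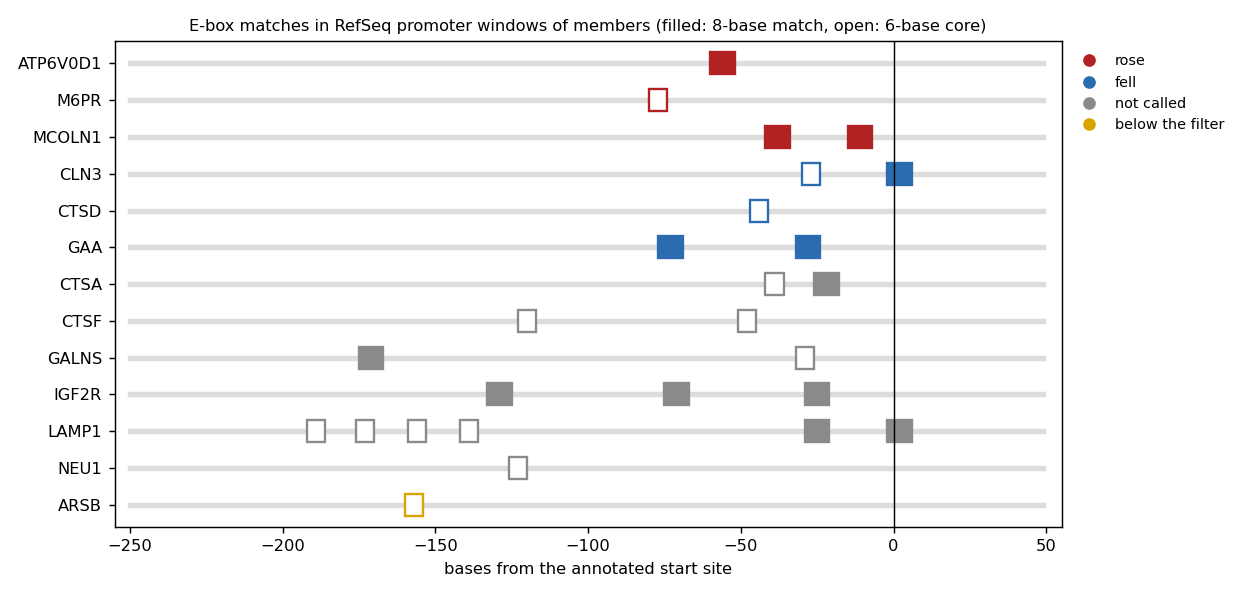
Position of each E-box match, in bases from the annotated start site (x axis), in the 13 members with a match (rows), in the first of a gene's windows that holds one. Filled boxes are the 8-base motif, open boxes the 6-base core, and colours give the change with versican. GAA, which fell, and MCOLN1, which rose, each hold 2 filled boxes, and LAMP1 holds 6 boxes in all. IGF2R, which was not called, holds 3 filled boxes.

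The transcripts of the factors that can bind this element were measured too, and none was called. The mean TFEB signal was 460 ± 53.1 without and 425 ± 53.9 with versican (SD, n = 3 each; log2 fold change -0.11, SE 0.12, adjusted p = 0.50). TFE3 went from 2155 ± 26.2 to 1988 ± 100.5 (SD, n = 3 each; log2 -0.12, SE 0.05, adjusted p = 0.11), and MITF from 260.5 ± 71.2 to 265 ± 32.0 (SD, n = 3 each; log2 0.05, SE 0.17, adjusted p = 0.84). TFE3 was lower on every versican array without being called. In a fit of every probe set, its further tested probe set was lower too, without a call (log2 -0.29, adjusted p = 0.068). That of MITF was higher without a call (log2 0.24, adjusted p = 0.18). Transcript levels say nothing of where these proteins were in the cell.

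Across the whole list the response was small and went both ways, with more genes lower than higher. Of 49 tested members, 16 fell (32.7%) and 5 rose (10.2%) with versican, and 28 were not called. Over all 9887 tested genes 20.6% fell and 21.0% rose, 41.6% in all, against 42.9% of members. The members' median log2 fold change was -0.09, and that of all tested genes 0.01. A call is a limma adjusted p of at most 0.05 on log2(signal + 16), adjusted over all tested genes; folds are taken on that scale, which makes those of dim genes too small. Called members differed by 1.13-fold to 1.79-fold, and only CTSO and MCOLN1 passed 1.5-fold. Of all 4117 called genes, 878 passed 1.5-fold. The median absolute log2 fold change was 0.39 for the 21 called members and 0.37 for all called genes. Control and versican arrays did not overlap for 25 of 49 members, where 52.2% of all tested genes did not overlap. In a bulk sample, fewer cells with a transcript and less of it per cell cannot be told apart. After median centring of the arrays 9 members fell and 5 rose, so the share of called members that rose was 35.7% in place of 23.8%. Over all tested genes that setting gave 1382 that fell and 1636 that rose, and the share of called genes that rose was 54.2% in place of 50.5%.

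**Figure D2:**
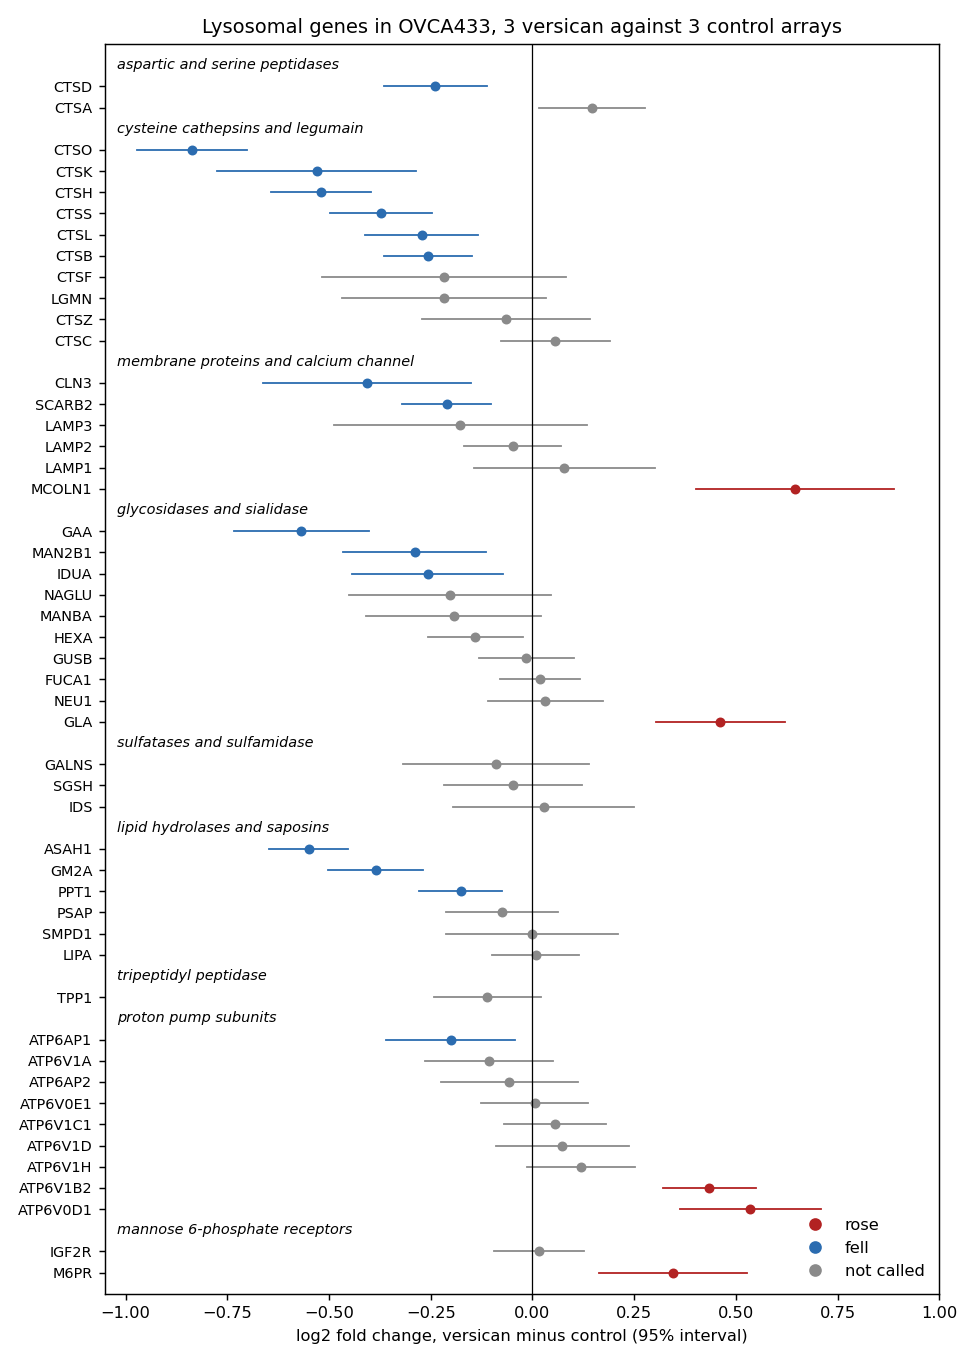
Log2 fold change (versican minus control, x axis) of the 49 tested members, ordered by role, with the 95% confidence interval from the limma fit, which is not adjusted for the number of genes. Blue members fell, red rose and grey were not called. Of the 10 cysteine cathepsins and legumain on the member list, 6 lie in blue and none in red.

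Cysteine cathepsins, papain-like proteases that carry out much of lysosomal protein breakdown, were the role with the most decreases. Of these 9 cathepsins and legumain, 6 fell, none rose and 4 were not called, with a median log2 fold change of -0.26. The share that fell was 60%, against 20.6% of all tested genes. CTSV, a cysteine cathepsin outside the member list, rose (log2 0.54). CTSO, cathepsin O, a little-studied member of this family, changed most of all members. Its signal was 1749.8, 1748 and 1871 on the control arrays and 1023, 1013 and 949.8 on the versican arrays. Every versican array therefore lay far below every control array, 1.79-fold lower by the fit (log2 -0.84, SE 0.06, adjusted p = 4.4e-06).

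CTSH, cathepsin H, an aminopeptidase, was bright on every array. Control signals were 15979, 17847 and 16937, and versican signals 11475, 11982 and 11906. The groups were well apart, with a 1.43-fold decrease (log2 -0.52, SE 0.06, adjusted p = 5.0e-05). CTSK, cathepsin K, a collagenase best known from osteoclasts, read 502, 459.5 and 421 without versican and 326, 280.4 and 336 with it. It fell 1.44-fold (log2 -0.53, SE 0.11, adjusted p = 0.0034), the replicates being more scattered than those of CTSH. CTSS, cathepsin S, which trims the MHC class II invariant chain, read 1617, 1605 and 1701 in control and 1304, 1237 and 1252 in versican arrays. It fell 1.29-fold (adjusted p = 0.00054), and its further tested probe set fell by 0.49 on the log2 scale.

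CTSL and CTSB, much studied in tumour invasion, fell as well. CTSL, cathepsin L, read 2138, 2197 and 1964 without and 1672, 1832 and 1703 with versican, with no overlap (1.21-fold lower, SE 0.06 on the log2 scale, adjusted p = 0.0060). CTSB, cathepsin B, went from 8163 ± 332 to 6823 ± 87.3 (SD, n = 3 each; log2 -0.26, SE 0.05, adjusted p = 0.0020). The brightest probe set gave CTSB's smallest change: its 4 further probe sets fell by 0.42, 0.47, 0.49 and 0.55 on the log2 scale. CTSL and CTSB were not called after median centring (adjusted p = 0.060 and 0.12). Legumain, LGMN, an asparaginyl endopeptidase, was not called (log2 -0.22, SE 0.11, adjusted p = 0.15). Nor were CTSF (-0.22, SE 0.13), CTSZ (-0.06, SE 0.09) and CTSC (0.06, SE 0.06), the last the activator of granule serine proteases.

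The list also held an aspartic and a serine peptidase. CTSD, the main aspartic protease of the lysosome, fell from 1367 ± 12.1 to 1157 ± 32.1 (SD, n = 3 each; log2 -0.24, SE 0.06, adjusted p = 0.0071), a call that was lost after median centring (adjusted p = 0.12). CTSA, a serine carboxypeptidase that protects NEU1 and beta-galactosidase, was higher on every versican array but not called (log2 0.15, SE 0.06, adjusted p = 0.068). Without versican replicate 3 CTSA was called higher (log2 0.20, adjusted p = 0.029). TPP1, a tripeptidyl peptidase lost in a childhood neuronal storage disease, was lower on every versican array without being called (log2 -0.11, SE 0.06, adjusted p = 0.16). In the fit of every probe set, a dimmer TPP1 probe set had the opposite sign, also without a call (log2 0.04, adjusted p = 0.69).

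Among 10 tested glycosidases and the sialidase, 3 fell, 1 rose and 6 were not called. The share called was 40%, against 41.6% of all tested genes. GAA, the acid alpha-glucosidase that degrades lysosomal glycogen and is lost in Pompe disease, had control signals of 1309.5, 1231 and 1454. Its versican signals were 862, 883 and 928, all below the lowest control array, and it fell 1.48-fold (log2 -0.57, SE 0.07, adjusted p = 0.00021). GLA, the alpha-galactosidase lost in Fabry disease, went the other way. Its signals of 653, 662 and 628 in control became 893, 859 and 944 in versican arrays, 1.38-fold higher (log2 0.46, SE 0.07, adjusted p = 0.00060).

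MAN2B1, lysosomal alpha-mannosidase, read 1257, 1244 and 1061 in control and 931, 961 and 1007 in versican arrays. The highest versican array came close to the lowest control array (1.22-fold lower, adjusted p = 0.014). MAN2B1 was not called without control replicate 2 or without versican replicate 1 (adjusted p = 0.054 and 0.053). IDUA, alpha-iduronidase, which cuts dermatan and heparan sulfate, read 593, 631 and 599.9 without and 528, 521 and 471 with versican (1.20-fold lower, adjusted p = 0.030). IDUA's call was lost without control replicate 2, control replicate 3 or versican replicate 3 (adjusted p = 0.086, 0.064 and 0.11) and after median centring (0.13).

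HEXA, the alpha subunit of beta-hexosaminidase, did not overlap between groups but missed the threshold (log2 -0.14, SE 0.05, adjusted p = 0.054) and passed without control replicate 1 (adjusted p = 0.038). MANBA, beta-mannosidase, was not called either (log2 -0.19, SE 0.10, adjusted p = 0.14) and passed without control replicate 2 (adjusted p = 0.032). The other glycosidases were not called: NAGLU, which acts on heparan sulfate, at -0.20 (SE 0.11, no overlap), GUSB, beta-glucuronidase, at -0.01 (SE 0.05), FUCA1, a fucosidase, at 0.02 (SE 0.04), and the sialidase NEU1 at 0.03 (SE 0.06).

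The sulfatases and sulfamidase, which remove sulfate from glycosaminoglycans and sulfatide, had no called member. GALNS and SGSH had log2 fold changes of -0.09 (SE 0.10) and -0.05 (SE 0.08). IDS, iduronate 2-sulfatase, which acts on dermatan and heparan sulfate, had a log2 fold change of 0.03 (SE 0.10) at its brightest probe set. Its probe sets disagreed: of 4 further tested ones, 1 fell by 0.17 and 1 rose by 0.46 on the log2 scale (adjusted p = 0.042 and 0.0083 in a fit of every probe set). ARSA and ARSB, arylsulfatases, lay below the expression filter, whose lowest mean signal was 201. ARSA read 152, 141 and 114 in control and 84.4, 107 and 121 in versican arrays, which overlap. ARSB read 149, 122 and 95.9 in control and 167, 145 and 163 in versican arrays, which overlap as well, and neither was tested.

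Of 6 lipid hydrolases and saposins, 3 fell and none rose. The share that fell was 50% of these 6, against 20.6% of all tested genes. ASAH1, acid ceramidase, which turns ceramide into sphingosine, had almost identical replicates. Control signals were 6935, 6960.4 and 7002, and versican signals 4798, 4794 and 4664, a 1.46-fold decrease (log2 -0.55, SE 0.04, adjusted p = 7.1e-06). The probe set used can bind related sequences, but 3 further ones fell by 0.56, 0.57 and 0.66 on the log2 scale. GM2A, the activator that presents GM2 ganglioside to beta-hexosaminidase, read 3082, 3113 and 2884 in control and 2327, 2236 and 2376 in versican arrays. It fell 1.31-fold (log2 -0.39, SE 0.05, adjusted p = 0.00027), and a further probe set fell by 0.51.

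PPT1, palmitoyl-protein thioesterase, went from 8463 ± 101 to 7489 ± 193 (SD, n = 3 each; log2 -0.18, SE 0.05, adjusted p = 0.011), and the call was lost without versican replicate 3 (adjusted p = 0.055) and after median centring (0.34). PSAP, the precursor of the 4 saposins, was not called at its brightest probe set (log2 -0.07, SE 0.06, adjusted p = 0.37), while a dimmer one fell by 0.26 (adjusted p = 0.024 in the fit of every probe set). SMPD1, acid sphingomyelinase, and LIPA, lysosomal acid lipase, had log2 fold changes of 0.00 and 0.01 (SE 0.09 and 0.05; adjusted p = 0.99 and 0.91). The 95% intervals were -0.21 to 0.21 for SMPD1 and -0.10 to 0.12 for LIPA.

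**Figure D3:**
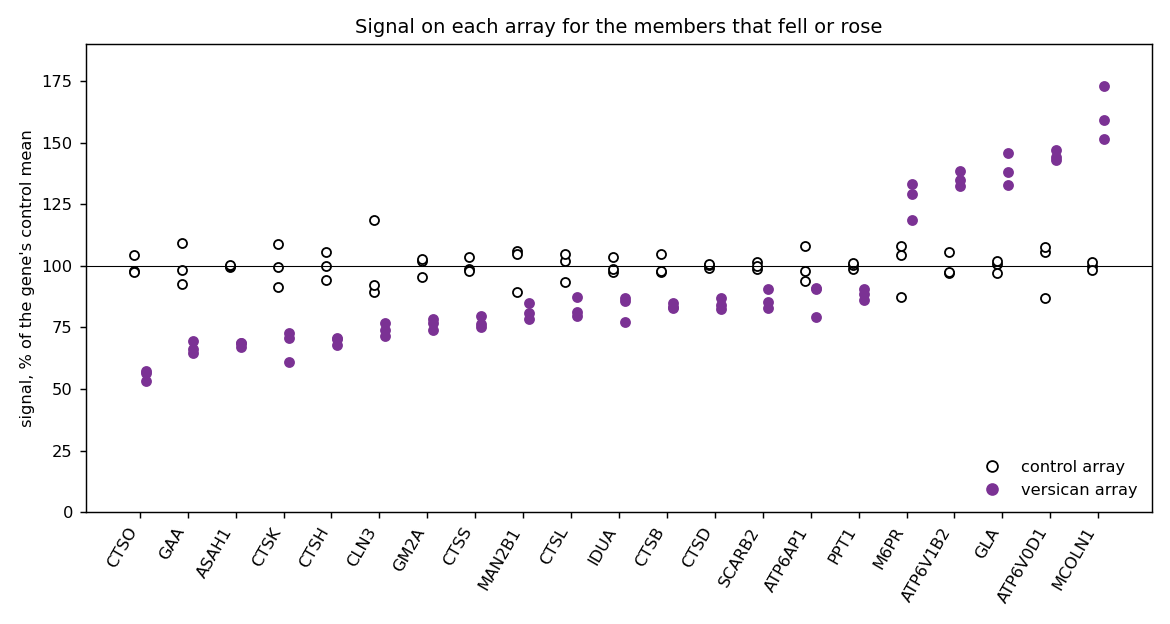
Signal of each array as a percent of the gene's control mean (y axis) for the 21 members that fell or rose (x axis), ordered by log2 fold change; open circles are control and filled circles versican arrays. No versican array overlaps the control arrays in these 21 members, and CTSO and MCOLN1 lie farthest out. The 21 were chosen by their adjusted p, so the lack of overlap adds no support to the calls. Of all tested genes, 52.2% did not overlap.

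Of 6 membrane proteins 1 rose, 2 fell and 3 were not called, with log2 fold changes from -0.41 to 0.65. Calls made up 50% here and 41.6% over all tested genes. MCOLN1, the calcium channel TRPML1 that releases calcium from lysosomes, had signals of 200.2, 203 and 196 in control and 303, 346 and 318 in versican arrays. It rose 1.56-fold (log2 0.65, SE 0.11, adjusted p = 0.0010), the largest increase among the members. Its control mean alone lay under the expression filter, so it was tested only because of its versican arrays. CLN3, a membrane protein lost in juvenile Batten disease, read 465, 618 and 482 without and 373, 387 and 401 with versican, control replicate 2 standing apart. It fell 1.33-fold (log2 -0.41, SE 0.12, adjusted p = 0.017). Its call was lost without control replicate 2 or versican replicate 1 (adjusted p = 0.053 and 0.056), and a further probe set was not called (log2 -0.12).

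SCARB2, also called LIMP-2, the carrier of glucocerebrosidase, fell from 6018 ± 75.8 to 5201 ± 236 (SD, n = 3 each; log2 -0.21, SE 0.05, adjusted p = 0.0066). A further probe set gave the same log2 fold change of -0.21 and another one -0.17 without a call, and the call was lost after median centring (adjusted p = 0.20). LAMP1 and LAMP2, the most abundant glycoproteins of the lysosomal membrane, were not called. Their log2 fold changes were 0.08 (95% interval -0.15 to 0.30) and -0.05 (-0.17 to 0.07). LAMP3, mostly known from dendritic cells, was dim and not called (-0.18, SE 0.14).

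Of 9 tested proton pump subunits, 2 rose, 1 fell and 6 were not called, with a median log2 fold change of 0.06. Calls made up 33.3% here and 41.6% over all tested genes. ATP6V0D1, the subunit that couples the V0 ring to the central stalk, read 1879, 1912 and 1546 without and 2544, 2612 and 2567 with versican. It rose 1.45-fold (log2 0.54, SE 0.08, adjusted p = 0.00040), with the groups far apart although control replicate 3 was low. ATP6V1B2, the ubiquitous B subunit of the V1 part that helps bind ATP, had signals of 3463, 3185 and 3193 in control and 4426, 4536 and 4346 in versican arrays. It rose 1.35-fold (log2 0.43, SE 0.05, adjusted p = 9.8e-05).

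Other V1 subunits did not follow ATP6V1B2 past the threshold. ATP6V1A, the catalytic subunit, stood at log2 -0.11 (SE 0.07, adjusted p = 0.25) for its brightest probe set. A dimmer ATP6V1A probe set fell by 0.30 (adjusted p = 0.0031 in the fit of every probe set). ATP6V1C1, ATP6V1D and ATP6V1H had log2 fold changes of 0.06, 0.07 and 0.12 (SE 0.06, 0.07 and 0.06), and ATP6V0E1, a small V0 subunit, of 0.01 (SE 0.06). ATP6AP1, an accessory subunit of the pump, fell from 5799 ± 429 to 5043 ± 392 (SD, n = 3 each; log2 -0.20, SE 0.07, adjusted p = 0.044). Leaving out control replicate 1, control replicate 2, versican replicate 1, versican replicate 2 or versican replicate 3 ended the call of ATP6AP1 (adjusted p = 0.062, 0.14, 0.057, 0.15 and 0.0501). It was also lost with the replicate number as a block (adjusted p = 0.074), after median centring (0.23), with no filter (0.081) and with no intensity trend (0.089). ATP6AP2, the renin receptor, was not called (-0.06, SE 0.08), though a dimmer probe set fell by 0.16.

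The receptors that bring enzymes to the lysosome differed in their calls. M6PR, the cation-dependent mannose 6-phosphate receptor, read 1568, 1873 and 1932 in control and 2309, 2125 and 2383 in versican arrays. It rose 1.27-fold without overlap (log2 0.34, SE 0.08, adjusted p = 0.0071). IGF2R, the cation-independent receptor that also clears IGF2, averaged 3077 ± 119 without and 3111 ± 70.6 with versican (SD, n = 3 each; log2 0.02, SE 0.05, adjusted p = 0.82). The difference between the responses of M6PR and IGF2R was not tested.

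The 28 members that were not called were measured closely in most cases. For 23 of the 28 the 95% interval of the difference left neither group more than 25% above the other. The widest bounds were a log2 fold change of -0.52 for CTSF and 0.30 for LAMP1. Within a group, replicate signals of tested members had coefficients of variation from 0.488% to 19.6%, and 38 of 49 members stayed at or under 10% in both groups.

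Probe sets of one gene can be set side by side; those of CTSB, CTSS, GM2A, SCARB2, PSAP, ATP6V1A and ATP6AP2 were singled out after their values were seen. The 51 members had 131 probe sets with a single symbol, 88 of them above the filter. Of the 21 called members, 6 had a further tested probe set (ASAH1, CLN3, CTSB, CTSS, GM2A and SCARB2). For 5 of these at least 1 such probe set moved the same way past the threshold, and for 0 the opposite way. For MCOLN1, CTSO, GAA, CTSH, CTSK, GLA, ATP6V0D1, ATP6V1B2 and M6PR the value rests on 1 tested probe set. The same holds for CTSD, CTSL, PPT1, MAN2B1, IDUA and ATP6AP1.

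**Figure D4:**
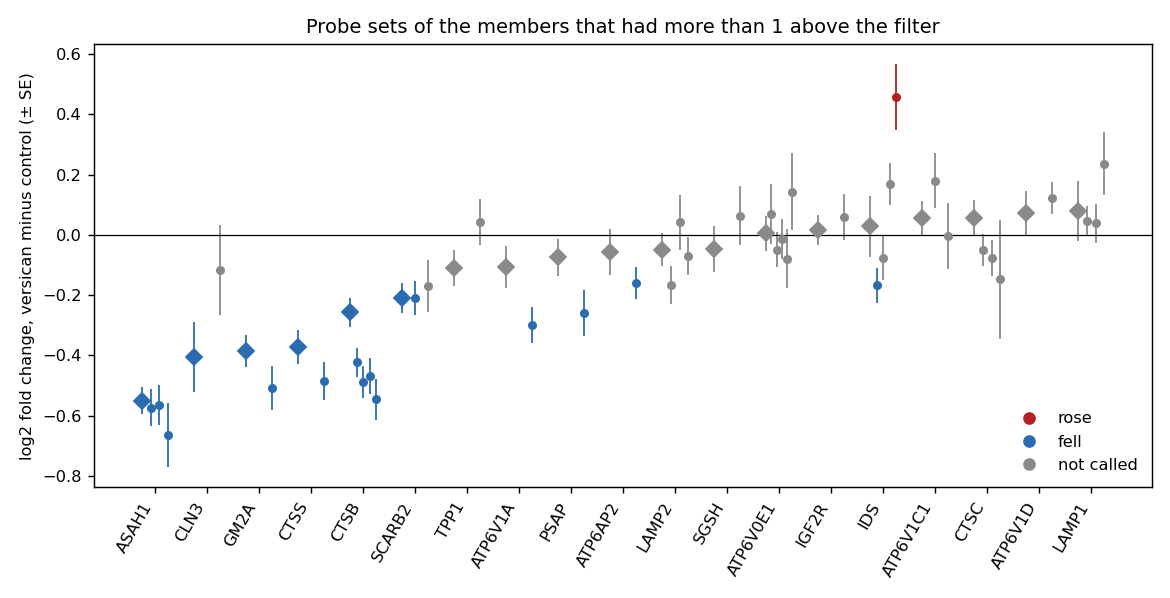
Log2 fold change (versican minus control, y axis, with the SE) of every tested probe set of the 19 members that had more than 1, from the fit of every probe set; diamonds are the brightest probe sets, used in the counts, and circles the others. All 5 probe sets of CTSB lie in blue, while IDS has 1 probe set in blue and 1 in red.

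Other genes of the pathway were read from the same fit, in 6 lists with 107 genes, of which 81 were tested. Of the 81, 34.6% were called, against 41.6% of all tested genes. Hydrolases outside the member list, 16 tested, had a median log2 fold change of -0.16, with 5 that fell and 3 that rose. Calls made up 50% of these 16. NAAA, an acid amidase of lipid amides, fell from 757 ± 41.4 to 487 ± 31.1 (SD, n = 3 each; log2 -0.62, SE 0.08, adjusted p = 0.00024). CTSV, cathepsin V, the closest relative of CTSL, rose from 1559 ± 143 to 2269 ± 126 (SD, n = 3 each; log2 0.54, SE 0.07, adjusted p = 0.00026), while CTSL fell. Among those named after their values were seen, CTBS, chitobiase, and RNASET2, a lysosomal ribonuclease, fell by 0.63 and 0.60 on the log2 scale, and GGH, gamma-glutamyl hydrolase, rose by 0.60.

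Of 20 further membrane proteins and transporters 2 rose and 4 fell, with a median of 0.02 on the log2 scale. Calls made up 30% here and 41.6% over all tested genes. CD63, a tetraspanin of late endosomes and exosomes, rose from 15975 ± 522 to 20226 ± 307 (SD, n = 3 each; log2 0.34, adjusted p = 0.00048), and SIDT2, a lysosomal membrane protein, fell by 0.36 on the log2 scale (adjusted p = 0.0032). Of 13 further pump subunits and assembly factors 3 rose and 2 fell, with a median of 0.12. The share called was 38.5%, against the same 41.6%. VMA21, a chaperone that assembles V0 in the endoplasmic reticulum, rose from 3957 ± 165 to 5962 ± 227 (SD, n = 3 each; log2 0.59, SE 0.05, adjusted p = 1.4e-05). TCIRG1, the a3 isoform of the V0 a subunit, fell from 2090.2 ± 65.2 to 1361 ± 66.7 (SD, n = 3 each; log2 -0.61, SE 0.06, adjusted p = 2.2e-05).

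Genes that tag and sort enzymes on their way to the lysosome had the most increases of these lists: of 25 tested, 8 rose and 1 fell, with a median log2 fold change of 0.12. VPS11, a core subunit of the tethering complexes CORVET and HOPS, rose by 0.49 (SE 0.08, adjusted p = 0.00087), and VPS26A, of the retromer that returns sorting receptors to the Golgi, by 0.29 (SE 0.05, adjusted p = 0.0011). NAGPA, the uncovering enzyme of the mannose 6-phosphate tag, rose by 0.71 on the log2 scale, chosen after its value was seen, and its control mean of 203 lay close to the filter. The share that rose was 32.0% here and 21.0% over all tested genes, and the lists were not tested as sets. None of 4 tested regulators was called, ZKSCAN3 included (-0.17, SE 0.12). None of 3 tested cystatins, the protein inhibitors of cysteine cathepsins, was called: CST3 had a log2 fold change of -0.11 (SE 0.06), CST6 of -0.06 (SE 0.06) and CSTB of 0.08 (SE 0.06).

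**Figure D5:**
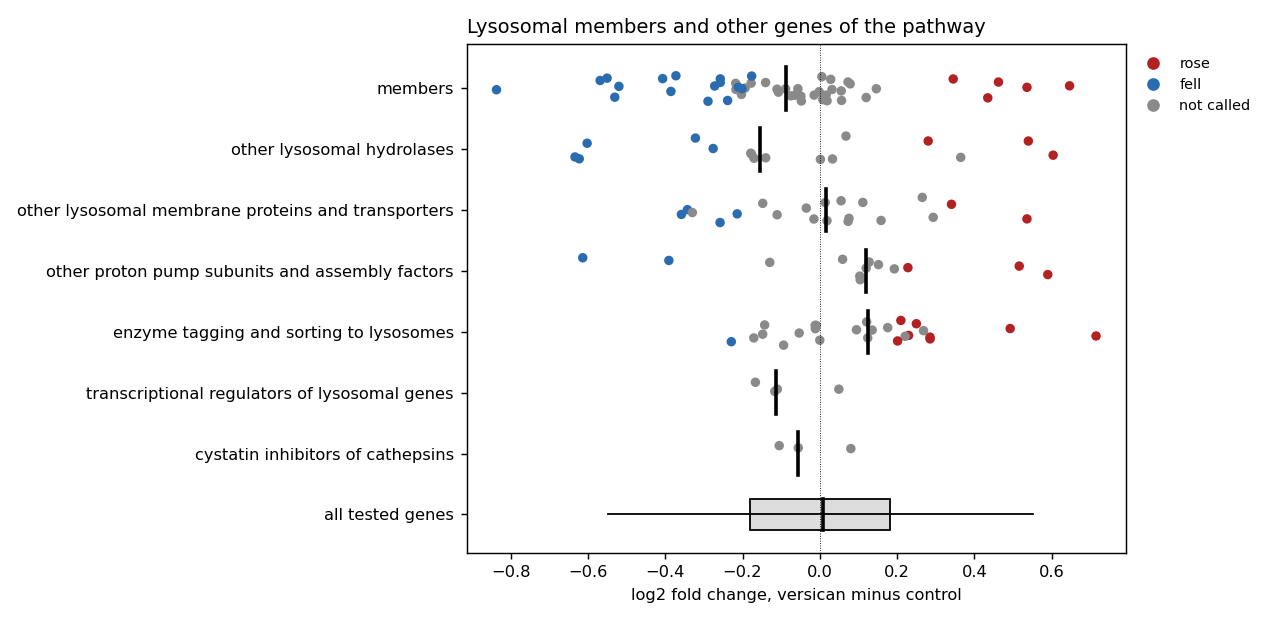
Log2 fold change (versican minus control, x axis) of each tested gene in the member list and in 6 other lists of the pathway; black bars are list medians, and the box and whiskers give the 25th to 75th and 5th to 95th percentiles of all 9887 tested genes. The median of the members is -0.09 and that of the tagging and sorting genes 0.12.

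Some members are abundant in other cell types, so markers of those were read beside them. All 10 ovarian epithelial carcinoma markers were above the filter, with summed signals of 115289 to 133512 in control and 119050 to 121279 in versican arrays. Of these, PAX8 rose (log2 0.90), MUC1 fell (-1.36), KRT19 and MSLN also fell, and 6 were not called. The share called was 40%, against 41.6% of all tested genes. Of 10 leukocyte markers only CD74 and LAPTM5 passed the filter. The sum of the 10, most of it from these 2, went from 2425 to 2632 in control to 2236 to 2342 in versican arrays. PTPRC, the pan-leukocyte phosphatase CD45, was at 14.5 ± 1.88 and 25.3 ± 5.77 (SD, n = 3 each), and CD14 at 29.9 ± 23.9 and 23.8 ± 18.3 (SD, n = 3 each). The 2 that passed went opposite ways: CD74, the invariant chain that CTSS trims, fell by 0.50 on the log2 scale, and LAPTM5, a lysosomal membrane protein of blood cells, rose by 0.31. Of 9 fibroblast markers only COL1A1 passed, and it fell by 0.89. The sum of the 9 lay between 5210 and 5303 in control and between 2714 and 3226 in versican arrays. COL1A1 made up most of that sum, with a mean of 4877 in control and 2632 in versican arrays. DCN was at 34.0 ± 14.0 and 40.0 ± 0.874 (SD, n = 3 each), and none of 4 endothelial markers passed the filter (summed signals of 226 to 378 and 222 to 315). The part of these markers in the decreases of CTSS and CTSK was not tested.

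As for the arrays as a whole, the 2% trimmed mean was 500.1 on each, and the median signal over all probe sets ran from 62.8 to 75.8, the highest being control replicate 1. Over the tested genes, Pearson's r was 0.993 to 0.995 within a group and 0.969 to 0.972 across groups, as a description of the arrays.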

How the data were processed

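Signals of 54675 probe sets on 6 arrays of OVCA433 cells, 3 control and 3 versican, were analysed. The authors deposited linear intensity values, which the submitters' processing notes credit to MAS5, in a version not given in the sources used here. Equal trimmed means show that each array was scaled. GEO's platform annotation paired 41091 non-control probe sets with 1 symbol, of which 41037 were updated through RefSeq's gene identifiers. The brightest probe set by mean log2(signal + 16) over 6 arrays stood for a gene, and the upper 50% of genes were tested with limma 3.58.1 in R 4.3.3 (lmFit on group, eBayes with an intensity trend, two-sided, Benjamini-Hochberg over all 9887 genes at 0.05). The fit was checked on simulated data with independent noise and far fewer changed genes than here. That check adds no support to the calls. Members, lists and tests were chosen with earlier results of these data known. Every member is named. Array values are given for the 16 largest called changes and for members below the filter. Of each other list the 2 genes with the smallest p, TFEB, TFE3 and MITF are named. Replicate numbers were not taken as pairs, since same-numbered arrays deviated together at 0.12, -0.02 and -0.09. The number of arrays limits the precision.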

Additional observations from a re-analysis of the deposited data

How the results depend on the processing

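No member changed its called direction in any of the 18 alternatives. Of the 21 called members, 12 had the same call in every alternative that tested them, and 23 of the 28 others were called in none. The median of the members stayed between -0.11 and -0.05. Among the upper 25% of genes, where 35 members were tested, 3 rose and 12 fell, and 1290 genes rose and 1131 fell. After median centring 9 members fell and 5 rose, and 1382 genes fell and 1636 rose. Without _x_at and _s_at probe sets, where 33 members and 8549 genes were tested, 3 members rose and 9 fell, and 1527 genes rose and 1587 fell. Leaving out each array in turn gave 5 to 6 members that rose and 13 to 16 that fell, with 1680 to 1940 genes that rose and 1639 to 1911 that fell. With the replicate block 5 members rose and 15 fell, and 2030 genes rose and 1943 fell; ATP6AP1 was the only member whose call it changed. The fit of every probe set, chosen after seeing the data, gave 5 and 16 members. Averaging a gene's probe sets ended the call of CLN3 (adjusted p = 0.13), left IDUA untested, and added PSAP and ATP6V1A (adjusted p = 0.0386 and 0.0265). HEXA passed after quantile normalization and cyclic loess (adjusted p = 0.034 and 0.032) and among the upper 25% of genes (0.048). The causes were not tested. Signals near the filter are the least certain, MCOLN1 among them.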
